A study of Quercus lobata with 12 samples.

Results

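Among the 39373 genes counted in leaves of valley oak (Quercus lobata) seedlings, 57 shifted the same way with 5-Azacytidine in each of 6 pairs of seedlings. Of these genes, 34 were higher and 23 were lower in the treated seedling of every pair. The genes were selected on these same seedlings by their within-pair ratios. Counts were scaled to the seedling's total (CPM, counts per 1000000), and 0.5 was added to the CPM of both seedlings of a pair before the treated value was divided by the control value. A gene was taken when its mean CPM over the 12 seedlings was 1 or more and all 6 ratios were at least 1.3, or all 6 were at most 1/1.3. Of the 21522 genes that reached a mean CPM of 1, the 34 higher genes were 0.158% and the 23 lower genes were 0.107%. Since the treatment difference chose the genes, its sizes below are a description and were not tested.

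RNA-seq was run on leaf tissue of 6 seedlings treated with 5-Azacytidine and 6 control seedlings from 3 maternal families (LAY-15, YORK-09 and HV-11), with 2 treated and 2 control seedlings per family. Seedlings were about 5 months old when spraying began and had been pruned, so that new leaves came up during the experiment. The treated seedlings received 50 µM 5-Azacytidine in the surfactant TWEEN 20 as a leaf spray over 27 days, and the controls received TWEEN 20 alone; leaf damage from the surfactant was seen under both sprays. Each pair was one treated and one control seedling of the same family whose RNA was extracted on the same day of October, and the pairs were HV-11-33 with HV-11-05 (day 19), HV-11-40 with HV-11-34 (day 30), LAY-15-09 with LAY-15-03 (day 30), LAY-15-34 with LAY-15-30 (day 19), YORK-09-08 with YORK-09-03 (day 16) and YORK-09-37 with YORK-09-10 (day 30). Values of treated and of control seedlings are listed in this order of pairs throughout. Members of a family are mostly half-siblings from open-pollinated acorns, so the seedlings of a pair also differed in genotype. The families were picked for large differences in phenotype between treatments, and treated and control seedlings were kept apart in the growth chamber, so placement and treatment cannot be told apart.

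DNA methylation adds a methyl group to cytosines. In plants it keeps transposable elements silent and is found in the bodies of many expressed genes. 5-Azacytidine is a cytosine analog that is built into newly copied DNA, cannot be methylated at its altered position and traps the enzymes that maintain methylation, so that cells dividing in its presence lose methylation across the genome. Loss of methylation at a promoter can switch a silent gene on, whereas the effect of losing methylation within a gene body varies. The deposited table does not pair its identifiers with gene names, and 0 of its 39373 identifiers matched an entry of RefSeq's valley oak annotation (assembly ValleyOak3.2). The function of the 57 genes was thus not known here, no marker of leaf cell types could be looked up, and only 4 genes are given by identifier. In whole leaves, a larger share of a cell type and more RNA per cell cannot be told apart.

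The total count of a seedling was between 9926728 and 11570198. The LAY-15 pair of day 19 stood apart. Over the 21522 genes, the median correlation of a seedling's log2(CPM + 0.5) with the other seedlings was 0.710 for LAY-15-30 and 0.815 for LAY-15-34, and between 0.845 and 0.873 for the other 10. Each seedling was a separate plant and is 1 sample.

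The genes were mostly of low to middling abundance, the lower ones more so, with a median over the mean CPM of 7.13 in the 34 higher and 3.98 in the 23 lower genes. Their mean CPM ran from 1.04 to 72.4 with a median of 6.57, while the median over the 21522 genes was 13.0. A mean CPM under 10 was found for 44 of the 57 (77.2%), against 43.7% of all genes at the minimum. The 4 members with a mean CPM above 50 all belonged to the higher group. The mean log2 ratio over the 6 pairs ran from 0.62 to 3.45 in the 34 higher genes, with a median of 1.39. It ran from -2.56 to -0.57 in the 23 lower genes, with a median of -1.23. Over all 21522 genes its median was -0.05.

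**Figure D1:**
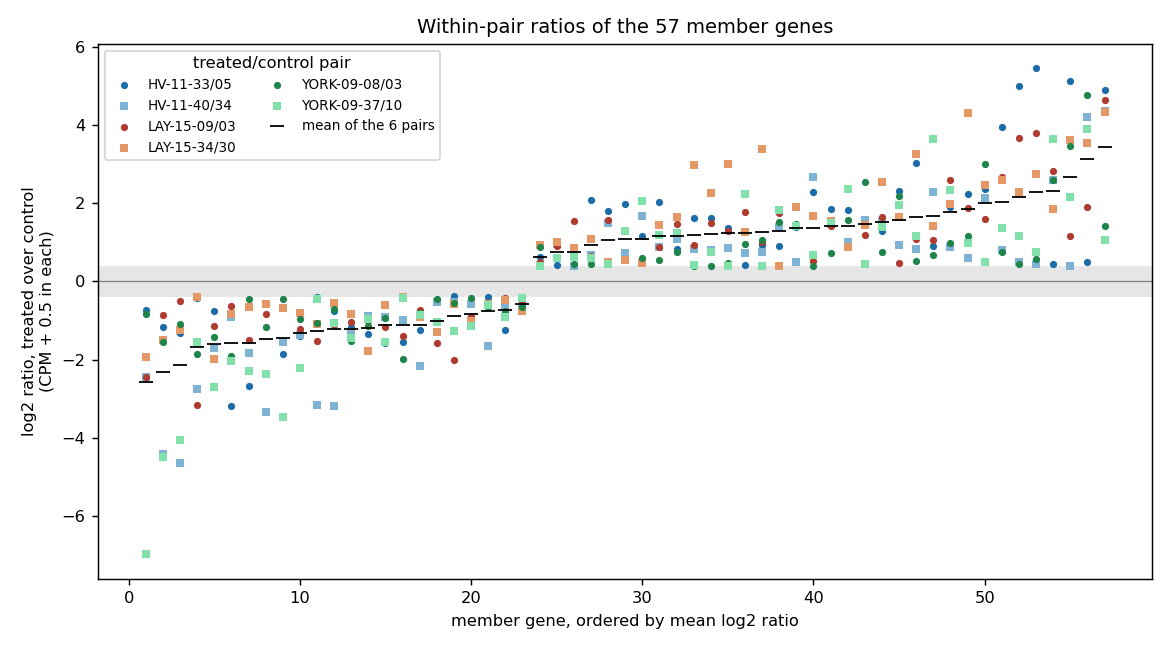
Log2 ratio of treated to control (CPM + 0.5 in each) for the 57 genes, ordered by their mean (black dash), with 1 point per pair; the grey band marks ratios between 1/1.3 and 1.3, where by the choice of the genes no point lies. Means run from -2.56 to 3.45, and the points of a gene spread widely, down to -6.98 for the gene with the lowest mean.

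The size of the shift differed between pairs. The median log2 ratio of the 34 higher genes was 1.71 in HV-11-33/05, 0.87 in HV-11-40/34, 1.44 in LAY-15-09/03, 1.76 in LAY-15-34/30, 0.75 in YORK-09-08/03 and 1.18 in YORK-09-37/10. For 22 of these 34 genes the largest ratio was that of HV-11-33/05 or LAY-15-34/30, 11 each. Over all 21522 genes the median absolute log2 ratio was also largest in LAY-15-34/30 (0.66), followed by YORK-09-08/03 (0.54) and HV-11-33/05 (0.48). The treated seedling LAY-15-34, one of the pair that stood apart, had the highest CPM of all seedlings for 16 of the 34. By the choice of the genes, the highest CPM of a higher gene is always that of a treated seedling. The share of all genes that were highest in LAY-15-34 was not computed. Among the 23 lower genes, the medians were -1.16, -1.55, -1.03, -0.80, -0.94 and -1.45 in the same order of pairs, and no pair held the largest shift for more than 6 of them. The weakest shift of a gene, in either direction, fell most often in YORK-09-08/03, with 16 of the 57 genes.

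QL02p000175 was the higher gene with the strongest weakest pair, and the only one of the 57 whose ratio was at least 2 in each pair. It was counted 157, 123, 124, 109, 11 and 6 times in the treated seedlings, against 0, 1, 0, 0, 1 and 0 times in the controls. The gene was thus near the limit of detection in every control seedling and present in every treated one, with lower counts in YORK-09 than in the other families. It averaged 8.15 ± 5.89 CPM in treated and 0.0294 ± 0.0455 CPM in control seedlings (SD, n = 6 each). Taking 3 counts in each control seedling as the limit of detection (0.280 CPM on average), the mean of the treated seedlings was at least 29.2-fold higher. That bound does not hold within YORK-09, where the treated seedlings were at 1.07 and 0.536 CPM. The ratio with 0.5 CPM added ran from 2.07 in YORK-09-37/10 to 29.6 in HV-11-33/05. QL02p000175 alone among the 57 had at most 3 counts in every seedling of a treatment.

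QL11p010442 was second by the same measure. It was at 1.28, 8.11, 1.55, 3.94, 17.0 and 9.47 CPM in the treated seedlings, against 0, 3.77, 0.604, 1.91, 5.36 and 1.43 CPM in the controls. The treatments overlapped, since the seedlings of some pairs were low in both treatments. HV-11-05, listed at 0, had no read of the gene, which allows up to 3. QL11p010442 averaged 6.89 ± 5.99 CPM in treated and 2.18 ± 2.03 CPM in control seedlings (SD, n = 6 each), and its mean log2 ratio was 1.43 ± 0.60 (SD, n = 6 pairs).

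QL05p082346 was the lower gene with the strongest weakest pair, and its reads were few. It was counted 6, 7, 0, 0, 33 and 0 times in the treated seedlings, against 25, 18, 5, 12, 89 and 5 times in the controls. In LAY-15-09/03 and YORK-09-37/10 the whole shift was thus 0 against 5 reads. The gene averaged 0.734 ± 1.25 CPM in treated and 2.28 ± 2.73 CPM in control seedlings (SD, n = 6 each), and its mean log2 ratio was -1.18 ± 0.33 (SD, n = 6 pairs). That value depended on the 0.5 CPM added, and was -2.18 with 0.1 CPM and -0.84 with 1 CPM.

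QL09p052051 was the second lower gene. It was at 8.65, 0, 0, 1.40, 3.01 and 0.357 CPM in the treated seedlings, against 19.9, 10.1, 0.403, 4.82, 9.85 and 18.8 CPM in the controls. The shift was large in HV-11-40/34 and YORK-09-37/10 and rested on 0 against 4 reads in LAY-15-09/03. It averaged 2.24 ± 3.35 CPM in treated and 10.7 ± 7.65 CPM in control seedlings (SD, n = 6 each), with overlap between the treatments.

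**Figure D2:**
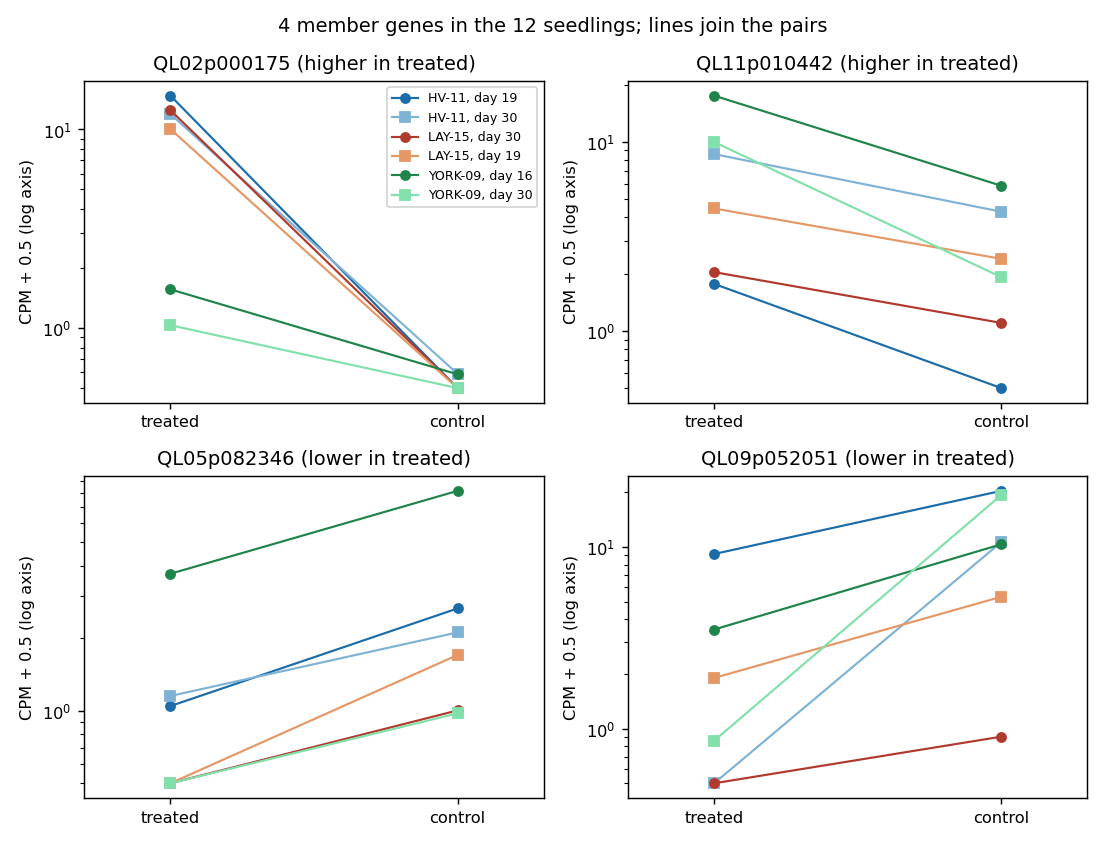
CPM + 0.5 on a log axis of the 4 genes given by identifier, in treated (left) and control (right) seedlings, with lines that join the seedlings of a pair. Every line has the same slope direction by the choice of the genes, but levels of seedlings within a treatment differ by more than many of the shifts, as for QL11p010442 with 1.28 to 17.0 CPM in treated and 0 to 5.36 CPM in control seedlings.

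QL09p052051 was one of 3 lower genes that lie within 4 consecutive rows of the table, which is sorted by identifier. Its neighbour in the next row was at 12.7, 0.0932, 1.36, 2.80, 6.71 and 0.6252 CPM in treated, against 32.1, 14.3, 2.12, 7.33, 14.9 and 18.1 CPM in control seedlings. The log2(CPM + 0.5) of these neighbours had a correlation of 0.965 over the 12 seedlings. Both genes were chosen for the same direction in all 6 pairs, so the choice fixed part of this value. The 12 seedlings are also grouped by family and day, and so are not independent. The remaining gene of the group was at 3.55, 0, 3.10, 8.85, 7.19 and 2.23 CPM in treated, against 5.53, 4.58, 5.94, 13.5, 16.7 and 13.5 CPM in control seedlings. All 3 genes had their largest shifts in HV-11-40/34 and YORK-09-37/10, where HV-11-40 had at most 1 read of each. The correlation of the remaining gene with QL09p052051 was lower, at 0.614. These 3 genes were picked out after their values were seen.

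A second set of neighbours, also picked out after seeing the values, was a pair of higher genes in adjacent rows. The first was at 20.8, 1.96, 9.58, 34.4, 0.778 and 3.39 CPM in treated, against 0.173, 1.26, 0.302, 6.73, 0.432 and 1.24 CPM in control seedlings. The second was at 28.8, 6.71, 57.01, 118, 7.68 and 9.65 CPM in treated, against 0.173, 4.76, 3.63, 17.3, 5.01 and 5.52 CPM in control seedlings. Both were highest in LAY-15-34, and both had their largest ratio in HV-11-33/05, where HV-11-05 had 2 reads of each. Their correlation over the 12 seedlings was 0.907, part of which the choice of the genes fixed. No value for members that are not neighbours is given beside it. The other 52 genes had no second member of the set within 20 rows. Reads that fit several places were removed before counting and the strand setting of the count was not stated, so values of close copies and of overlapping genes are uncertain.

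The most abundant higher gene averaged 121 ± 103 CPM in treated and 23.6 ± 27.8 CPM in control seedlings (SD, n = 6 each). It was at 228, 103, 50.3, 268, 18.3 and 59.4 CPM in the treated seedlings, against 6.05, 77.8, 22.1, 21.5, 1.21 and 12.9 CPM in the controls. Its ratios reached from 1.32 in HV-11-40/34 to 34.9 in HV-11-33/05, so the pairs of 1 family held both the smallest and the largest. The most abundant lower gene also had the largest mean shift among the lower genes, with 8.38 ± 8.39 CPM in treated and 62.3 ± 64.3 CPM in control seedlings (SD, n = 6 each). It was at 3.92, 23.9, 9.39, 2.80, 9.63 and 0.715 CPM in treated, against 6.83, 132, 52.8, 12.2, 17.5 and 152 CPM in control seedlings. Its level in control seedlings thus spanned 22.3-fold, and 3 of the 6 treated seedlings were below every control.

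The levels of treated and control seedlings did not overlap for 7 of the 57 genes, 5 higher and 2 lower. Among all 21522 genes, 7 (0.0325%) lay higher in every treated seedling than in any control and 10 (0.0465%) lay lower, so 10 of these 17 genes were not among the 57. One of the 5 was QL02p000175. Another was at 11.7, 16.4, 17.6, 12.9, 18.6 and 20.4 CPM in treated, against 4.50, 5.30, 5.34, 1.81, 10.9 and 7.43 CPM in control seedlings. In the other 50 genes the ranges of the treatments overlapped.

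The number of genes was compared with the numbers obtained when treatment was swapped within pairs. Swapping all 6 pairs only turns the direction, so there are 32 distinct assignments. With treatment as labelled 57 genes passed, and the 31 other assignments gave 20 to 129 genes (median 55). In an exact permutation test over the 32 assignments, one-sided, 14 gave 57 or more genes (p = 0.438, where the smallest possible p is 0.0313). The number with treatment as labelled thus lay well inside the range of the other assignments, 13 of which gave at least as many. The largest number, 129, came with treatment swapped in HV-11-40/34, LAY-15-09/03, LAY-15-34/30 and YORK-09-37/10. With pairs crossed, so that each treated seedling was set against the control of its family from the other day, 43 genes passed and 12 of the 57 were among them.

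**Figure D3:**
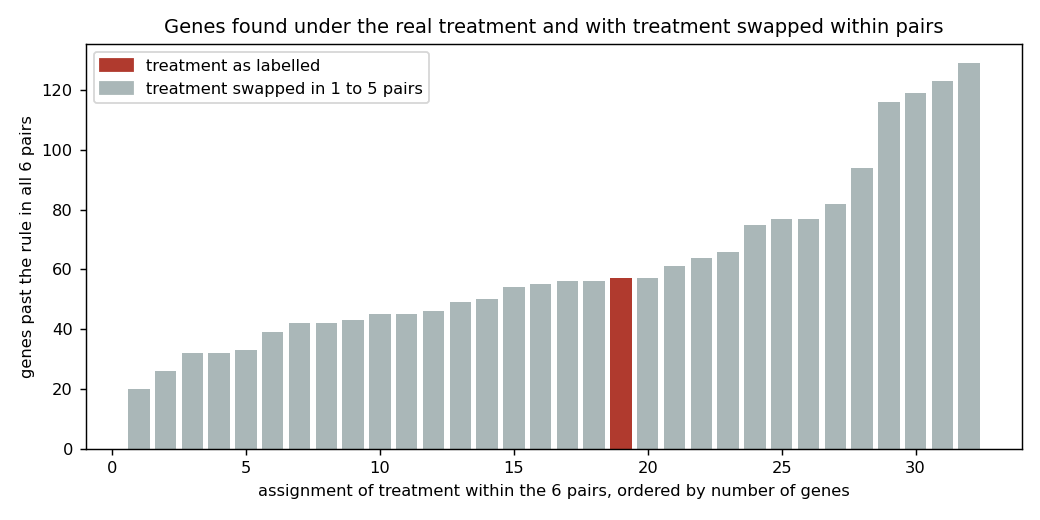
Number of genes past the same rule under each of the 32 assignments of treatment within pairs, in increasing order. The labelled assignment (red) gave 57 genes and lies in the middle of the 31 others (grey), which ran from 20 to 129.

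The choice was then repeated from 5 pairs at a time, and the pair left out was read as seedlings the choice had not used. Between 130 and 171 genes passed in 5 pairs. In the left-out pair, the share of them with the direction of the other 5 was 49.6% of 139 genes for HV-11-33/05, 46.2% of 171 for HV-11-40/34, 55.4% of 130 for LAY-15-09/03, 45.5% of 154 for LAY-15-34/30, 46.9% of 160 for YORK-09-08/03 and 50.3% of 165 for YORK-09-37/10. Over all genes of the same mean CPM minimum, with the same mix of directions, the share lay between 49.1% and 50.5%. The chosen genes were above that share in 3 of the 6 pairs and below it in the other 3. A shift past 1.3 in the direction of the other pairs was seen for 33.9% to 43.8% of the chosen genes, and one past 1.3 in the opposite direction for 30.0% to 45.0%. Among all genes, 25.2% to 34.4% passed 1.3 in the same direction, and the chosen genes were above the share of all genes in each of the 6 pairs. The opposite shift was yet the more frequent in HV-11-40/34 (45.0% against 33.9%), LAY-15-34/30 (41.6% against 35.7%), YORK-09-08/03 (40.0% against 35.0%) and YORK-09-37/10 (37.6% against 33.9%). It was the less frequent in HV-11-33/05 (40.3% against 41.0%) and LAY-15-09/03 (30.0% against 43.8%). Being above the share of all genes thus does not by itself show agreement in direction. No p is given for these shares, because the 6 sets of genes overlap.

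**Figure D4:**
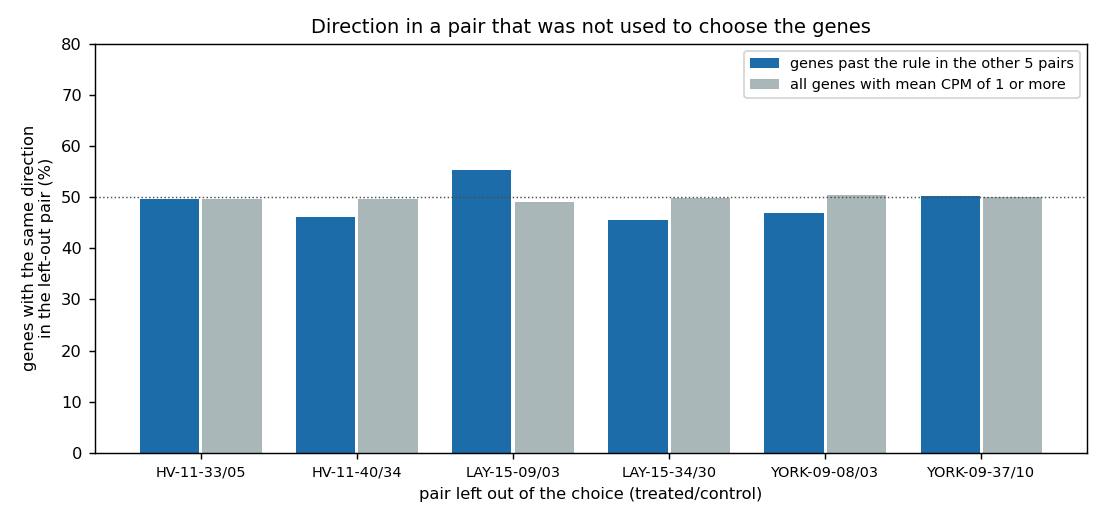
Percent of genes that had, in the pair left out, the same direction as in the other 5 pairs, for genes chosen from those 5 pairs (blue) and for all genes with a mean CPM of 1 or more (grey). The blue bars lie between 45.5% and 55.4% and the grey bars between 49.1% and 50.5%.

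Over the 21522 genes, the log2 ratios of 2 pairs had correlations between -0.18 and 0.10 in the 15 combinations of pairs, which share no seedling, and 7 of the 15 were negative. These are correlations across genes, which are not independent replicates. The lowest was between both HV-11 pairs (-0.18) and the highest between HV-11-40/34 and LAY-15-09/03 (0.10). In any single pair a ratio past 1.3 in either direction was common, with 51.0% of genes in LAY-15-09/03 and 68.6% in LAY-15-34/30 as the lowest and the highest share.

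With treatment and day of extraction in the model, the quasi-likelihood test of edgeR called 0 of 23791 genes (0%) at an adjusted p under 0.05, and so 0 of the 57, all of which passed its filter on low counts. At an unadjusted p under 0.05 it found 666 genes (2.80%), 47 of the 57 (82.5%) among them. DESeq2 with the same model called 23 genes (0.0967%), of which 13 were among the 57, or 56.5% of the called genes and 22.8% of the 57. With the pairs as a block it called 61 genes (0.256%), of which 20 were among the 57, or 32.8% of the called genes and 35.1% of the 57. Both tools read the contrast that chose the genes, so nothing is drawn from these counts.

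Family and extraction day were balanced over the treatments. The direction of a family or day difference did not enter the choice, but the pairs were matched on both, so the shares below are not independent of the choice and are a description. With treatment, family and day in 1 fit over the 12 seedlings, edgeR called a family difference in 0 of the 57 genes and in 1 of the 23791 genes tested (0.0042%). At an unadjusted p under 0.05, 9 of the 57 (15.8%) differed between families, against 7.76% of all genes tested. In the 6 control seedlings alone, 4 of the 49 members that passed the filter did (8.16%), against 6.4% of all genes. The count of 9 depended on single seedlings. With 1 seedling left out it was lowest without LAY-15-03, at 6 (10.5%, against 6.33% of all genes). It was highest without HV-11-40, at 12 (21.1%, against 5.21% of all genes). DESeq2 called a family difference in 3 of the 57 (5.26%), against 2.25% of all genes.

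For extraction day, edgeR called 0 of the 57 and 0 of 23791 genes (0%), and 10 of the 57 (17.5%) had an unadjusted p under 0.05, against 8.21% of all genes. This count depended on single seedlings. It was 5 (8.77%, against 6.25% of all genes) without LAY-15-09. Without LAY-15-03, LAY-15-34, YORK-09-03 or YORK-09-08 it was 6 (10.5%, against 4.92%, 8.09%, 8.35% and 6.75% of all genes). Without HV-11-05 or HV-11-34 it was 11 (19.3%, against 9.78% and 8.88% of all genes). Without LAY-15-30 it was 12 (21.1%, against 6.76% of all genes). Between days 19 and 30 alone, in HV-11 and LAY-15, it was 8 of the 57 (14.0%, against 8.64% of all genes). DESeq2 called a day difference in 4 of the 57 (7.02%), against 2.35% of all genes. The same higher gene had the smallest p for family and for day from edgeR. It was at 8.56, 0.373, 3.29, 82.7, 0.778 and 2.50 CPM in treated, against 0.0864, 0, 0.101, 13.3, 0.259 and 0.666 CPM in control seedlings. LAY-15-34 was far above the other seedlings for this gene, and LAY-15-30 was above the other controls. Its adjusted p from edgeR was 0.479 for family and 0.437 for day.

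Counting error was sizeable for many of the 342 ratios (57 genes in 6 pairs). The exact binomial 95% confidence interval of the ratio of counts, scaled by the totals, reached 1 for 71 ratios (20.8%) and reached the threshold of 1.3 or 1/1.3 for 135 (39.5%). For 17 genes no interval reached 1, and for 4 genes no interval reached the threshold. All these ratios were chosen to lie past the threshold, so the intervals tend to lie too far from 1. The counts are thus a description, and the share over all genes was not computed. In 28 ratios 1 seedling had 0 reads, and in 22 both seedlings had under 10 reads. Reads made by PCR are not independent molecules, so the intervals cover counting error only. They do not cover the spread between seedlings.

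The members closest to the threshold had smallest ratios of 1.31, 1.31 and 1.31 in the higher group, and the inverse of the ratio was 1.304, 1.31 and 1.31 in the lower group. Just outside lay genes with 1.29, 1.29 and 1.28 in the higher direction and 1.297, 1.27 and 1.27 in the lower direction. Scaling changed which genes passed in both directions, and fewer lower genes passed. With CPM by column totals the median log2 ratio of all genes lay between -0.19 in LAY-15-34/30 and 0.09 in YORK-09-08/03, and with edgeR's TMM library sizes between -0.05 and 0.03. With TMM, 48 genes passed, 34 higher and 14 lower (70.8% higher, against 59.6% by column totals), and 38 of the 57 were among them. The 34 higher genes with TMM were not the same 34, since some members left the set and other genes entered it. With median-ratio size factors 46 passed, 32 higher and 14 lower, with 37 of the 57. All 57 genes had the same sign in all 6 pairs under both scalings. The choice of the genes fixed this outcome, since neither scaling changed a pair by as much as 1.3-fold. Without the LAY-15 pair of day 19, the 5 other pairs chose 154 genes, 71 higher and 83 lower, and 55 of the 57 were among them. The choice fixed this overlap, since a gene past 1.3 in 6 pairs is past it in any 5. Only a mean CPM that fell under 1 without the left-out pair could drop a gene. In these 5 pairs, 7 of the 16 distinct assignments gave as many genes or more.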

How the data were processed

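The data were RNA-seq read counts of leaves from 12 Quercus lobata seedlings. The authors used Cutadapt 2.3 for trimming, STAR 2.7.1 for alignment to the species' genome, SAMtools 1.9 to drop reads with several matches, Picard 2.20.3 for artifact duplicates and HTSeq 0.11.1 for counting. The deposited values are whole-number counts with no normalization. The strand setting and annotation are not given in the sources used here. All 12 columns were used.

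CPM used the column total. The pairs follow the family and extraction day of the labels. Deviations of log2(CPM + 0.5) from the treatment means had a mean correlation of 0.220 within the 6 pairs (0.054 to 0.505). Between the 30 other combinations the mean was -0.043 and the highest value 0.262, which is above the mean within pairs. Tests used edgeR 4.0.16 (glmQLFit and glmQLFTest, filterByExpr with a minimum count of 10 and a minimum total of 15 over family by treatment groups, TMM) in R 4.3.3, with DESeq2 1.42.0 as the alternative, and p-values were adjusted over all genes by Benjamini-Hochberg. Ratios, swaps and intervals used Python 3.11.15 and SciPy 1.17.1. The scripts were tested on simulated data. The genes given by identifier were the 2 higher and 2 lower ones whose weakest of 6 log2 ratios was farthest from 0. The others described were the most abundant, those with the largest mean ratio, those nearest the threshold and the one with the smallest family and day p. The genes and the rules were chosen with earlier results of these data known.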

Additional observations from a re-analysis of the deposited data

Results flagged for a closer look

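In 18 groups of 6 seedlings (9 of the 57 genes in each treatment), 7 had a seedling whose gap to the next, divided by the range of the group, exceeded Dixon's 95% critical value. Chance gives about 1 in 20 where values are normally distributed and groups are independent, which was not tested for these CPM values, and some of the genes were chosen for extreme values. The last gene below was described for its smallest p for family and day, and it supplies 2 of the 7. The most abundant higher gene was at 77.8 CPM in the control HV-11-34, with the next control at 22.1 CPM. The higher gene nearest the threshold was at 10.9 CPM in the control LAY-15-30, with the next control at 4.06 CPM. QL05p082346 was at 3.21 CPM in the treated YORK-09-08, with the next treated seedling at 0.652 CPM, and at 7.69 CPM in the control YORK-09-03, with the next control at 2.16 CPM, so both seedlings of that pair were high. QL09p052051 was at 8.65 CPM in the treated HV-11-33, with the next treated seedling at 3.01 CPM. The higher gene with the smallest p for family and day was at 82.7 CPM in the treated LAY-15-34, with the next treated seedling at 8.56 CPM, and at 13.3 CPM in the control LAY-15-30, with the next control at 0.666 CPM. Over all 57 genes, LAY-15-34 stood apart among treated seedlings for 7 genes and LAY-15-30 among controls for 7, more often than any other seedling. These seedlings also had the lowest median correlations with the others over the 21522 genes (0.815 and 0.710). The share of all genes for which they stood apart was not computed.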

How the results depend on the processing

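The number of genes, 57, was 37 with 1 CPM added in place of 0.5, 32 with a mean CPM of at least 5, and 88, 18 and 1 with ratios of 1.2, 1.5 and 2. With each pair left out in turn it lay between 130 and 171. In 17 alternatives the exact permutation p over the swaps lay between 0.375 and 0.938. The median share of genes with the same direction in the left-out pair was 48.3%, and 43.9% with median-ratio size factors; the cause was not tested. For treatment, edgeR called 0 genes in 15 alternatives, the pairs as a replicate block among them, with smallest adjusted p-values from 0.214 to 1.00, whereas DESeq2 called 23, and 61 with the pairs as a block, a fit added after seeing the data. Among the 57, DESeq2 called 3 for family and 4 for day where edgeR called 0. With 0.1 CPM added the mean log2 ratio of QL02p000175 was 5.32. Low read counts limit most of the members.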
